A study of Mus musculus with 14 samples.

Results

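Mouse embryonic stem cells (ESCs) that lack the zinc finger transcription factor ZFP281 were compared with cells that have it, at passage 3 of a chemical differentiation to extraembryonic endoderm (the stage cXENp3). The comparison takes 4 of the 14 libraries of the series, chosen by their titles. The null libraries are those of the Zfp281 knockout lines 2.6Null and 3.34Null. The Zfp281-present libraries are those of the wild-type line 3WT and of Rescue, which the labels describe as the 3.34Null line with Zfp281 put back. The genes described are mainly those whose log2(FPKM + 1) differed with the same sign in all 4 null-present pairs, which means that the null and the present libraries did not overlap. FPKM are fragments divided by transcript length and by the fragments of the library, so levels of different genes are on 1 scale per length.

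ZFP281 binds G-rich DNA and is known in ESCs as a partner of the pluripotency factors and of repressive histone deacetylase complexes. Extraembryonic endoderm stem (XEN) cells are derived from the primitive endoderm, the layer that forms the yolk sac. That layer arises in the blastocyst, where the epiblast keeps Nanog and the primitive endoderm turns on GATA and SOX17 factors under FGF signalling. XEN cells secrete basement membrane, are bound together loosely and take up proteins through endocytic receptors and lysosomes.

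All libraries are labelled with the strain background 129S1/SVImJ, except XENB1 (129S1), and the ESCs were grown without feeders in serum and LIF. The series asks whether Zfp281 limits the passage from ESC to XEN. Differentiation used retinoic acid at 0.01 µM with activin A at 10 ng/mL for 48 hours, which gave passage 1 (cXENp1), then growth on fibroblast feeders at passage 2 and on gelatin in XEN medium at passage 3. The 2 null and 2 present lines were each sequenced once as ESCs, at cXENp1 and at cXENp3, and the established XEN lines XENB1 and XEN5 were sequenced once each as wild-type references. Each line is represented by 1 library per stage, and 3WT and Rescue are the only present lines, so the lines themselves are the replicates (n = 2 per group). Nothing in the labels says that libraries came from separate cultures, so p-values measure only the spread between these libraries. The titles call a null line 2.6 where its cell line field reads 2.26-/-, and the title is used here. The sequencing depth is unknown, because the table gives FPKM and no read counts.

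The 4 libraries differed in ways that are not set by the gene lists below. In each library of the course, the median difference from 3WT was taken per chromosome. Genes of chromosome 14 stood 0.424 and 0.472 above 3WT on the log2 scale in 2.6Null and 3.34Null at cXENp3, against 0.046 in Rescue. Genes of chromosome 1 stood at -0.428 in 2.6Null, -0.016 in 3.34Null and 0.065 in Rescue. On chromosome 6, the 129 genes between 60 and 100 Mb stood at 0.969 and 0.968 in the null libraries and at 0.096 in Rescue, while the 334 other genes of that chromosome stood at 0.033, -0.008 and 0.052. These offsets were present in the ESCs as well: in 2.6Null and 3.34Null the chromosome 14 median was 0.451 and 0.543, and the chromosome 6 segment stood at 1.009 and 0.81. Rescue, labelled as derived from 3.34Null, had -0.032 and -0.008 there. The remaining chromosomes with 20 or more genes ranged from -0.162 to 0.202 at cXENp3. The Y-linked gene Eif2s3y had 1.01 FPKM in 2.6Null and 2.45 FPKM in 3.34Null, against 49.8 FPKM in 3WT and 30.5 FPKM in Rescue. On chromosome 14 and in the chromosome 6 segment both null lines stood above 3WT while Rescue stayed near it. These offsets and the loss of Zfp281 therefore cannot be told apart in these lines. The part of these chromosome differences in the results was not tested gene by gene, so the main counts below are also given without the 1801 tested genes of chromosomes 1, 6, 14 and Y. Leaving those genes out does not remove any effect of the offsets on genes elsewhere, which was not tested.

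**Figure D1:**
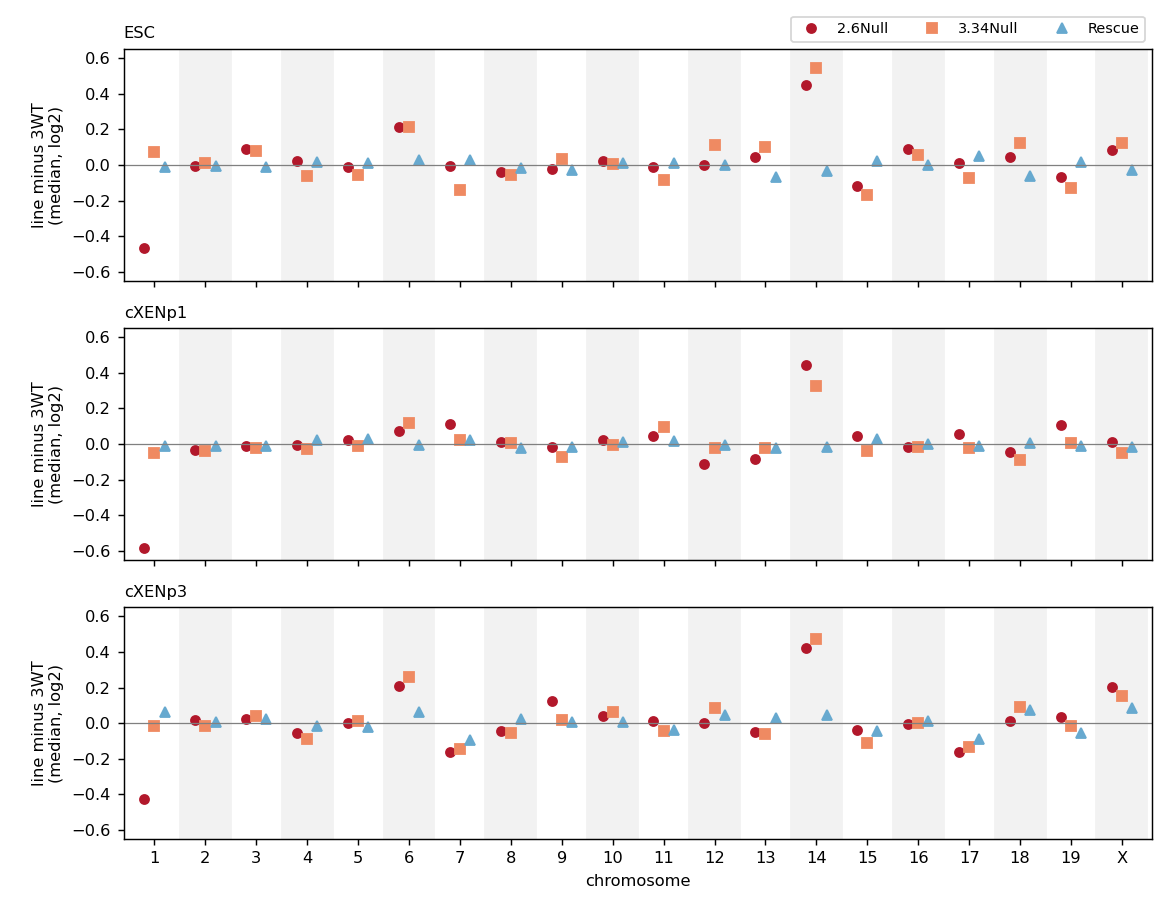
Median log2(FPKM + 1) difference from 3WT per chromosome (horizontal axis) in 2.6Null (red circles), 3.34Null (orange squares) and Rescue (blue triangles), for ESCs, cXENp1 and cXENp3, over genes with a mean of at least 3 FPKM and centred on the median of all of them. Both null lines stand above 0 on chromosome 14 at each stage and 2.6Null stands below 0 on chromosome 1, while Rescue stays between -0.096 and 0.083 on the chromosomes shown.

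Zfp281 itself was low in both null lines. It had 0.559 FPKM in 2.6Null and 3.96 FPKM in 3.34Null, against 33.96 FPKM in 3WT and 38.6 FPKM in Rescue, so that the groups did not overlap (log2 difference -3.74, SE 0.72, adjusted p 0.00319, limma with Benjamini-Hochberg adjustment over all genes tested). XENB1 and XEN5, which are wild type, had 10.6 and 12.5 FPKM. The 3.34Null library thus held more Zfp281 transcript than 2.6Null and less than every Zfp281-present or XEN library.

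Loss of Zfp281 went with a change of expression across a large share of the transcriptome at cXENp3. Of 13191 genes tested, 5528 (41.9%) were called at an adjusted p under 0.05, of which 3016 (22.9%) were higher and 2512 (19%) lower in the null lines. All 5528 had the same sign in all 4 pairs. Same-sign genes numbered 9615 (72.9%), with 4904 (37.2%) higher and 4711 (35.7%) lower, so the sign alone marks most genes. The smallest of the 4 pair differences reached 1 on the log2 scale in 1483 higher genes (11.2%) and 779 lower genes (5.91%). At the edge of the sign rule, Paf1 stood just inside with 31.5 and 31.4 FPKM in the null and 31.4 and 30.0 FPKM in the present libraries. Layn stood just outside, with 1.24345 FPKM in 3.34Null and 1.24347 FPKM in Rescue. Among lower genes, Iqgap2 was just inside with 5.53195 FPKM in 3.34Null and 5.53335 FPKM in Rescue, and Terf2 just outside with 19.1975 FPKM in 2.6Null and 19.1953 FPKM in Rescue. Without the genes of chromosomes 1, 6, 14 and Y, 11390 genes were tested and 4813 called, 2571 higher and 2242 lower. The count rested most on 2.6Null and 3WT. It was 2806 without 2.6Null, 2981 without 3WT, 5221 without 3.34Null and 4998 without Rescue.

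**Figure D2:**
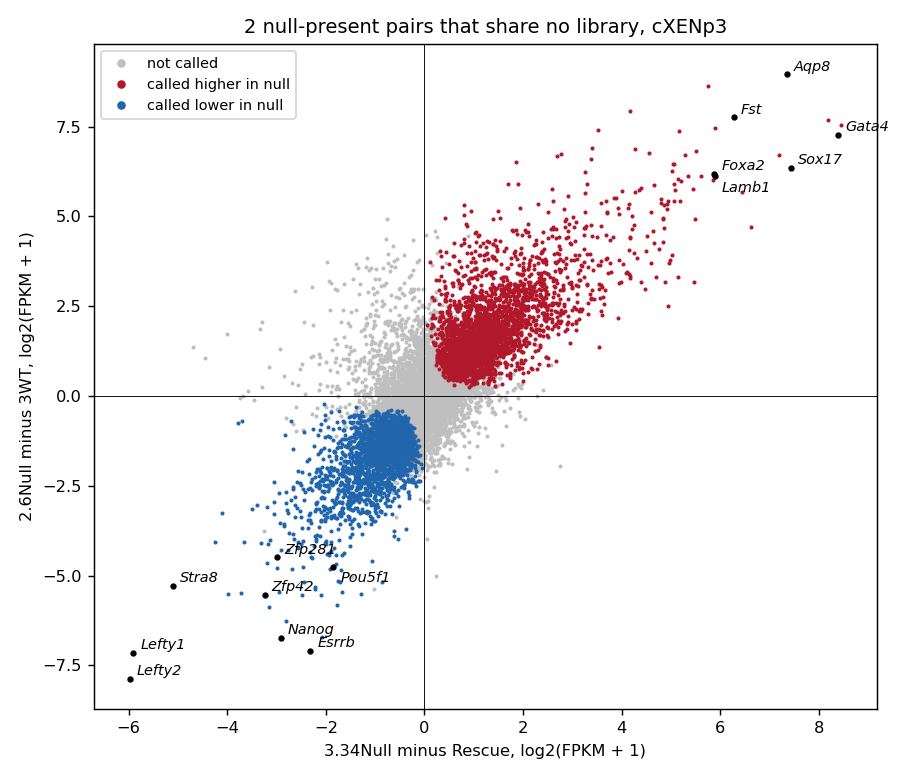
Each point is a gene, placed by its log2(FPKM + 1) difference between 3.34Null and Rescue (horizontal) and between 2.6Null and 3WT (vertical) at cXENp3, which share no library. Genes called higher (red) lie in the upper right and genes called lower (blue) in the lower left, with Gata4, Aqp8 and Fst at the upper end and Lefty1 and Lefty2 at the lower end, and genes listed at 0 in any of the 4 libraries are left out. All 5528 called genes had the same sign in all 4 pairs, so their quadrant follows from the call on these same libraries and is no test.

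The primitive endoderm transcription factors had the largest median difference of the lists. Of the 8 factors, 8 were called higher in the null lines, beside 22.9% of all genes tested, with a median log2 difference of 5.81 beside 0.01 over all genes. In bulk libraries such as these, more cells of a type and more RNA per cell cannot be told apart. Gata4, a zinc finger factor that sets up the endoderm programme, had 323 FPKM in 2.6Null and 410.2 FPKM in 3.34Null, against 1.11 FPKM in 3WT and 0.2296 FPKM in Rescue (log2 difference 7.83, SE 1.05, adjusted p 0.000632). The XEN lines had 326 FPKM in XENB1 and 430.2 FPKM in XEN5, so that both null libraries stood at the XEN level and both present libraries near 0. Sox17, the SRY-box factor that marks the layer, had 106 FPKM in 2.6Null and 183 FPKM in 3.34Null, against 0.306 FPKM in 3WT and 0.0631 FPKM in Rescue (log2 difference 6.89, SE 0.65, adjusted p 0.000136). Sox7, its close relative, had 62.98 FPKM in 2.6Null and 118 FPKM in 3.34Null, against 0.242 FPKM in 3WT and 0.371 FPKM in Rescue (log2 difference 6.06, SE 1.08, adjusted p 0.00221). Foxa2, a forkhead factor of endoderm, had 77.7 FPKM in 2.6Null and 62.4 FPKM in 3.34Null, against 0.0801 FPKM in 3WT and 0.0773 FPKM in Rescue (log2 difference 6.03, SE 0.67, adjusted p 0.000271). In each of these 4 genes the lowest null library exceeded the highest present library by over 5 on the log2 scale. Gata6, which acts upstream of Gata4 in the blastocyst, had 141 FPKM in 2.6Null and 212 FPKM in 3.34Null, against 1.16 FPKM in 3WT and 5.03 FPKM in Rescue (log2 difference 5.59, SE 0.98, adjusted p 0.0021), and Rescue was the higher of the present libraries. The forkhead gene Foxq1 had 78.6 and 48.1 against 0.501 and 0.446 FPKM (log2 difference 5.41, SE 0.76, adjusted p 0.000755). Hnf4a, a nuclear receptor of visceral endoderm, was called at a lower level, with 3.37 and 3.99 against 0.731 and 0.555 FPKM and a log2 difference of 1.51 (adjusted p 0.0176). Without chromosomes 1, 6, 14 and Y, which hold Sox17, Gata4 and Sox7, 5 of the 5 factors left were called higher. Calls lost on leaving out 1 library are named for the genes with values here and in the groups that follow, and other members enter the list counts. With 1 of the 4 libraries left out, the threshold was missed without 2.6Null by Hnf4a (adjusted p 0.0675); without 3.34Null by Hnf4a (adjusted p 0.0671); without 3WT by Hnf4a (adjusted p 0.0625); without Rescue by Hnf4a (adjusted p 0.0623).

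**Figure D3:**
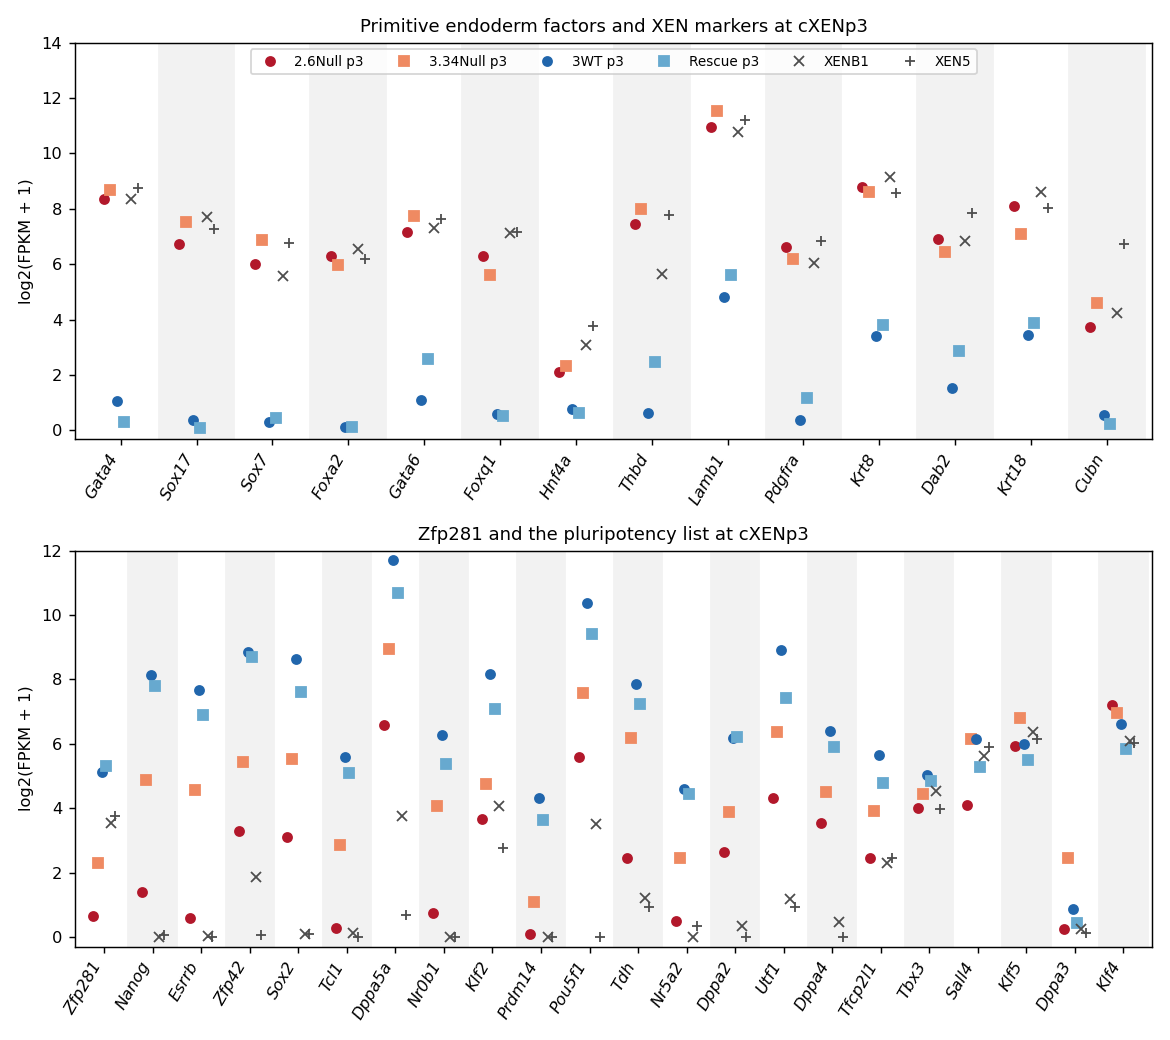
log2(FPKM + 1) of 7 primitive endoderm factors and 7 XEN markers (upper panel) and of Zfp281 and the pluripotency list (lower panel) in the 4 cXENp3 libraries (coloured) and the XEN lines (grey), 1 library per symbol. In the upper panel both null libraries lie beside the XEN lines and above both present libraries, and in the lower panel 3.34Null lies between 2.6Null and the present libraries for most genes.

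Most markers of XEN cells that act at the membrane, in the cytoskeleton or in the matrix were also higher in the null lines, where they had values above 0. Of 14 such markers tested, 8 were called higher and 4 lower, beside 22.9% and 19% of all genes tested. Their median was 3.87, or 4.48 over the 9 with no value of 0 in the 4 libraries. Lamb1, a laminin chain of basement membrane, had 1987 FPKM in 2.6Null and 2933 FPKM in 3.34Null, against 27.6 FPKM in 3WT and 48.4 FPKM in Rescue (log2 difference 6.01, SE 0.66, adjusted p 0.000258). Thbd, the thrombomodulin of parietal endoderm, had 173 FPKM in 2.6Null and 253 FPKM in 3.34Null, against 0.545 FPKM in 3WT and 4.56 FPKM in Rescue (log2 difference 6.16, SE 0.50, adjusted p 6.46e-05). Both genes were highest in 3.34Null and lowest in 3WT, with no overlap of the groups. Pdgfra, the PDGF receptor of primitive endoderm, had 97.7 FPKM in 2.6Null and 71.7 FPKM in 3.34Null, against 0.284 FPKM in 3WT and 1.23 FPKM in Rescue (log2 difference 5.65, SE 0.76, adjusted p 0.000647). Krt8, a keratin of simple epithelia, had 438 FPKM in 2.6Null and 393 FPKM in 3.34Null, against 9.67 FPKM in 3WT and 13.1 FPKM in Rescue (log2 difference 5.08, SE 0.51, adjusted p 0.000177), and its partner Krt18 had 277 and 136 against 9.93 and 13.6 FPKM (log2 difference 3.95, SE 0.42, adjusted p 0.000222). The endocytic adaptor Dab2 had 119.9 and 86.8 against 1.899 and 6.34 FPKM (log2 difference 4.48, SE 1.16, adjusted p 0.0127), and the receptor Cubn had 12.2 and 23.5 against 0.465 and 0.161 FPKM (log2 difference 3.79, SE 1.17, adjusted p 0.0265). The cubilin partner Amn did not pass the test, with 1.39 and 1.65 against 0.912 and 0.374 FPKM. All 4 markers called lower (Col4a1, Col4a2, Lamc1 and Sparc) are listed at exactly 0 in both null libraries and in both XEN lines, as is Lama1, and they are described with the basement membrane. Counts higher and lower of the markers were 6 and 2 without 2.6Null, 7 and 3 without 3.34Null, 6 and 4 without 3WT, and 7 and 2 without Rescue. Leaving out 1 library, the threshold was missed without 2.6Null by Cubn (adjusted p 0.0808) and Dab2 (adjusted p 0.0809); without 3.34Null by Cubn (adjusted p 0.112); without 3WT by Cubn (adjusted p 0.0884) and Dab2 (adjusted p 0.0877); without Rescue by Cubn (adjusted p 0.0857).

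The largest rises over all genes included several that belong to no marker list. Aqp8, an aquaporin, had 583 FPKM in 2.6Null and 182 FPKM in 3.34Null, against 0.174 FPKM in 3WT and 0.125 FPKM in Rescue (log2 difference 8.15, SE 0.80, adjusted p 0.000175). Both null libraries exceeded the XEN lines, which had 22.98 FPKM in XENB1 and 17.2 FPKM in XEN5. Srgn, a proteoglycan of secretory granules, had 918 FPKM in 2.6Null and 817 FPKM in 3.34Null, against 3.88 FPKM in 3WT and 1.34 FPKM in Rescue (log2 difference 8.004, SE 1.15, adjusted p 0.000831). Hs3st1, a heparan sulfate sulfotransferase, had 259 FPKM in 2.6Null and 357 FPKM in 3.34Null, against 0.27004 FPKM in 3WT and 0.219 FPKM in Rescue (log2 difference 7.94, SE 0.69, adjusted p 9.39e-05). In these 3 genes no present library exceeded 4 FPKM. The secreted chaperone Clu had 3655 and 1743 against 8.31 and 31.4 FPKM (log2 difference 7.18, SE 0.86, adjusted p 0.000372), and the XEN lines had 629 FPKM in XENB1 and 435 FPKM in XEN5. Pth1r, the parathyroid hormone receptor known in parietal endoderm, had 278 and 402 against 1.67 and 1.77 FPKM (log2 difference 6.95, SE 0.85, adjusted p 0.000393). The prostaglandin transporter Slco2a1 had 273 and 82.8 against 0.551 and 0.416 FPKM (log2 difference 6.68, SE 0.68, adjusted p 0.000195). The tetraspanin Tspan8 had 269.6 and 60.7 against 0.631 and 0.711 FPKM (log2 difference 6.27, SE 1.03, adjusted p 0.00155), and the matrix gene Tinagl1 had 813 and 494 against 2.31 and 26.3 FPKM (log2 difference 6.06, SE 1.08, adjusted p 0.00227). Tspan8 and Slco2a1 were over 3 times higher in 2.6Null than in 3.34Null. None of the called genes named here lost its call when 1 of the 4 libraries was left out.

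Pluripotency genes were lower in the null lines, where 3.34Null kept more of them than 2.6Null. Of 21 genes in the list, 16 were called lower and 0 higher, beside 19% of all genes called lower, with a median log2 difference of -3.21. The median log2 level of the list was 3.095 in 2.6Null, 4.77 in 3.34Null, 6.396 in 3WT and 5.91 in Rescue, and 1.18 and 0.13 in XENB1 and XEN5. Nanog, the homeobox factor of the epiblast, had 1.64 FPKM in 2.6Null and 28.5 FPKM in 3.34Null, against 280.3 FPKM in 3WT and 221 FPKM in Rescue (log2 difference -4.82, SE 0.85, adjusted p 0.0021). The 3.34Null library held over 15 times the level of 2.6Null and stood below both present libraries. Esrrb, an orphan nuclear receptor of naive ESCs, had 0.509 FPKM in 2.6Null and 22.8 FPKM in 3.34Null, against 204 FPKM in 3WT and 117 FPKM in Rescue (log2 difference -4.699, SE 0.94, adjusted p 0.00378). Zfp42, also called Rex1, had 8.83 FPKM in 2.6Null and 42.6 FPKM in 3.34Null, against 457 FPKM in 3WT and 412 FPKM in Rescue (log2 difference -4.39, SE 0.63, adjusted p 0.000802). Sox2, the partner of OCT4, had 7.54 FPKM in 2.6Null and 45.04 FPKM in 3.34Null, against 399 FPKM in 3WT and 195 FPKM in Rescue (log2 difference -3.82, SE 0.75, adjusted p 0.00351). For Pou5f1, which encodes OCT4, the values were 47.4 and 189 FPKM in the null libraries and 1313 and 685 FPKM in the present libraries (log2 difference -3.31, SE 0.55, adjusted p 0.00158), and XENB1 and XEN5 had 10.4 and 0 FPKM. Dppa5a had the highest level of the list in 3WT, with 93.9 and 486 against 3353 and 1637 FPKM and a log2 difference of -3.45 (adjusted p 0.00376). Tdh, a threonine dehydrogenase of ESCs, did not pass the test, with 4.53 and 72.2 against 230.1 and 149 FPKM (adjusted p 0.0559). Klf4, Klf5, Sall4 and Dppa3 did not pass either: Klf4 had 146 and 123 against 97.02 and 56.2 FPKM, and Klf5 had 59.6 and 110.5 against 63.3 and 43.98 FPKM. None of the called genes named here lost its call when 1 of the 4 libraries was left out. With chromosomes 1, 6, 14 and Y left out, 12 of 14 were called lower.

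Other genes among the largest falls were a phosphatase and germline genes. Alpl, the tissue-nonspecific alkaline phosphatase used to stain ESC colonies, had 0.623 FPKM in 2.6Null and 8.15 FPKM in 3.34Null, against 123 FPKM in 3WT and 62.7 FPKM in Rescue (log2 difference -4.53, SE 0.66, adjusted p 0.000878). Stra8, a germline gene induced by retinoic acid, had 0.1697 FPKM in 2.6Null and 0.871 FPKM in 3.34Null, against 44.6 FPKM in 3WT and 63.1 FPKM in Rescue (log2 difference -5.19, SE 0.46, adjusted p 0.000106). Both were under 9 FPKM in both null libraries. Dmrt1, a factor of germ cells, had 0.0999 and 1.796 against 64.1 and 23.7 FPKM (log2 difference -4.52, SE 0.68, adjusted p 0.000992). Gm7325 had 0.505 and 15.4 against 155 and 68.5 FPKM (log2 difference -4.39, SE 0.89, adjusted p 0.00414), and Fxyd6, a regulator of the sodium pump, had 2.405 and 6.63 against 148 and 58.1 FPKM (log2 difference -4.201, SE 1.21, adjusted p 0.0199). Ndufa4l2 had 0.516 and 0.388 against 66.7 and 17.2 FPKM (log2 difference -4.596, SE 1.35, adjusted p 0.0216). After 1 library was dropped, the threshold was missed without 2.6Null by Fxyd6 (adjusted p 0.131) and Ndufa4l2 (adjusted p 0.0963); without 3.34Null by Ndufa4l2 (adjusted p 0.073); without 3WT by Fxyd6 (adjusted p 0.121) and Ndufa4l2 (adjusted p 0.14).

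Promoters of genes on either side of the comparison are shown for reference, because they hold short motifs of the factors named above. The 250 bases before a RefSeq transcription start (GRCm38.p6, 5′ to 3′ on the gene's strand) were searched on both strands for AGATAA, the motif of GATA factors, for GGGGAGGGG, the G-rich motif reported for ZFP281, for ATGCAAAT, the octamer bound by OCT4 (ATTTGCAT on the other strand), and for ACAATG, the motif of SOX factors. No motif holds another. Matches are in capitals. The Foxa2 start shown is the one of its 3 listed starts with a match to the first motif as well as the second, and the Nanog start is the first of 2.
Foxa2 (chr2:148045465-148045714, minus strand): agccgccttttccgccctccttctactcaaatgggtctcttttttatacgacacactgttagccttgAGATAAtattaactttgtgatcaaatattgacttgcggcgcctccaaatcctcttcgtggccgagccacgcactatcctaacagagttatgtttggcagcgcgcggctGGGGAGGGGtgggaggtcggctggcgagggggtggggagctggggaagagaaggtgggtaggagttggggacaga
Krt8 (chr15:102004343-102004592, minus strand): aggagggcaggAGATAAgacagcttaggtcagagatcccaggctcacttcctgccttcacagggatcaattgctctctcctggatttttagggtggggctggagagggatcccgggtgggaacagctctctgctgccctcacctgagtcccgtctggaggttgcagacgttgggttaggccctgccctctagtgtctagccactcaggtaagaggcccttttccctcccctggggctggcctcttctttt
Nanog (chr6:122707239-122707488, plus strand): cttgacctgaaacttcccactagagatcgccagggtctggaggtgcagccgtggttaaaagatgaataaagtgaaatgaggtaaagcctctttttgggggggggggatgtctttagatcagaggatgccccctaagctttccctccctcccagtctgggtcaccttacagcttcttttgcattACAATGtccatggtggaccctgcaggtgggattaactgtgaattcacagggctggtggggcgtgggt
Zfp42 (chr8:43307010-43307259, minus strand): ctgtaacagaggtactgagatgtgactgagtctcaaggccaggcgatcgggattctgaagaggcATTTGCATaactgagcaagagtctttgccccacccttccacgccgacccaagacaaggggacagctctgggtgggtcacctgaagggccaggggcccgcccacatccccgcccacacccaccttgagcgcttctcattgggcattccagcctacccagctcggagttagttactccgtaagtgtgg
Foxa2, at the start shown, and Krt8 each hold AGATAA, and both genes rose. The other listed Foxa2 starts hold none of the 4 motifs. Nanog holds ACAATG and Zfp42 holds ATTTGCAT, and both genes fell. Of 9739 tested genes with a promoter in the table, 6.9% held AGATAA, beside 8.85% of the 1096 matched genes called higher and 5.91% of the 541 matched genes called lower with all 4 pair differences at least 1. GGGGAGGGG was held by 9.89% of all, 9.67% of the higher and 10.9% of the lower genes. The octamer was in 1.58%, 1.37% and 2.59%, and ACAATG in 7.51%, 8.76% and 9.61%. Most genes of either set held none of the 4 motifs by these shares, and a match describes letters only.

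Genes of the formative and primed epiblast, the state that follows naive pluripotency in the embryo, were called in both directions. Of 13 tested, 6 were called lower and 3 higher, beside 19% and 22.9% of all genes tested, with a median of -1.37. Without chromosomes 1, 6, 14 and Y, 3 of 10 were called lower and 3 higher, with a median of -0.35. The zinc finger gene Zic2 had 4.22 FPKM in 2.6Null and 3.42 FPKM in 3.34Null, against 37.6 FPKM in 3WT and 27.8 FPKM in Rescue (log2 difference -2.796, SE 0.28, adjusted p 0.000193). Otx2, a homeobox factor of the formative state, had 3.64 and 3.84 against 19.9 and 6.095 FPKM (log2 difference -1.36, SE 0.43, adjusted p 0.0277). Its null libraries differed by less than 0.3 FPKM and both stood below Rescue. The 3 members called higher, Fst, Dkk1 and Fgf5, encode secreted proteins that other tissues also make: Dkk1 had 1.51 and 4.04 against 0.235 and 0.465 FPKM and Fgf5 had 4.05 and 1.13 against 0.483 and 0.398 FPKM. Dnmt3b did not pass, with 23.1 and 40.3 against 18.9 and 9.94 FPKM. Counts higher and lower became 2 and 4 without 2.6Null, 2 and 5 without 3.34Null, 1 and 3 without 3WT, and 2 and 6 without Rescue. Among the genes named, the threshold was missed without 2.6Null by Fgf5 (adjusted p 0.215) and Otx2 (adjusted p 0.119); without 3.34Null by Dkk1 (adjusted p 0.0897) and Otx2 (adjusted p 0.0748); without 3WT by Dkk1 (adjusted p 0.0821), Fgf5 (adjusted p 0.0918) and Otx2 (adjusted p 0.192); without Rescue by Fgf5 (adjusted p 0.0853).

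The nodal and activin pathway signals through type I and II receptors to SMAD2 and SMAD3 and induces its own ligands and the LEFTY inhibitors in ESCs. Of 7 ligands and inhibitors tested, 5 were called lower and 2 higher, beside 19% and 22.9% of all genes tested. Lefty2 fell most of all tested genes with values above 0, with 0.219 FPKM in 2.6Null and 3.29 FPKM in 3.34Null, against 283 FPKM in 3WT and 269.9 FPKM in Rescue (log2 difference -6.92, SE 0.55, adjusted p 6.32e-05). Lefty1 had 3.09 FPKM in 2.6Null and 5.43 FPKM in 3.34Null, against 580.2 FPKM in 3WT and 386 FPKM in Rescue (log2 difference -6.53, SE 0.92, adjusted p 0.000759). Nodal itself had 1.897 FPKM in 2.6Null and 6.38 FPKM in 3.34Null, against 51.2 FPKM in 3WT and 33.8 FPKM in Rescue (log2 difference -3.203, SE 0.46, adjusted p 0.000817). The present libraries held over 60 times the LEFTY levels of either null library. Gdf3, a related ligand, had 1.76 and 14.1 against 58.4 and 47.03 FPKM (log2 difference -3.05, SE 0.70, adjusted p 0.00758), and the activin subunit Inhbb had 2.87 and 7.71 against 38.2 and 27.3 FPKM (log2 difference -2.52, SE 0.34, adjusted p 0.000633). Fst, the secreted inhibitor that binds activin, rose, with 401 FPKM in 2.6Null and 405 FPKM in 3.34Null, against 0.853 FPKM in 3WT and 4.25 FPKM in Rescue (log2 difference 7.02, SE 0.42, adjusted p 1.16e-05), and the activin subunit Inhba had 36.3 and 23.3 against 0.951 and 9.71 FPKM (log2 difference 2.72, SE 0.62, adjusted p 0.00722). Lefty1, Lefty2 and Inhbb lie on chromosome 1 and Gdf3 on chromosome 6, and without those chromosomes Nodal was called lower and Fst and Inhba higher.

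Among 14 receptors, transducers and processing enzymes of the pathway, 5 were called lower and 2 higher, beside 19% and 22.9% of all genes tested. The co-receptor Tdgf1, also called Cripto, had 25.7 FPKM in 2.6Null and 87.3 FPKM in 3.34Null, against 973 FPKM in 3WT and 479 FPKM in Rescue (log2 difference -3.81, SE 0.54, adjusted p 0.000775). The SMAD partner Foxh1 had 3.15 and 5.42 against 31.3 and 12.9 FPKM (log2 difference -2.03, SE 0.46, adjusted p 0.00717), and the proprotein convertase Pcsk6 had 1.29 and 3.401 against 13.7 and 7.103 FPKM (log2 difference -1.78, SE 0.41, adjusted p 0.00778). Furin, another convertase, was higher, with 71.3 and 34.6 against 9.09 and 10.7 FPKM (log2 difference 2.22, SE 0.33, adjusted p 0.000995). Smad2 had 18.95 and 22.4 against 10.5 and 9.67 FPKM (log2 difference 0.96, SE 0.19, adjusted p 0.00339). Lower calls in this list numbered 3 without 2.6Null, 5 without 3.34Null, 2 without 3WT and 5 without Rescue. Of the pathway genes named, the threshold was missed without 2.6Null by Foxh1 (adjusted p 0.0655), Gdf3 (adjusted p 0.0539), Inhba (adjusted p 0.0618) and Pcsk6 (adjusted p 0.0739); without 3WT by Foxh1 (adjusted p 0.0634) and Pcsk6 (adjusted p 0.0687).

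FGF signalling drives primitive endoderm formation through ERK, with FGF4 made by the epiblast. Fgf4 had 1.503 FPKM in 2.6Null and 17.03 FPKM in 3.34Null, against 89.6 FPKM in 3WT and 31.6 FPKM in Rescue (log2 difference -3.02, SE 0.80, adjusted p 0.0137), and Fgf17 had 0.646 and 2.45 against 13.1 and 12.9 FPKM (log2 difference -2.55, SE 0.37, adjusted p 0.000813). Fgf3 was higher in the null lines, with 20.5 FPKM in 2.6Null and 38.2 FPKM in 3.34Null, against 1.17 FPKM in 3WT and 0.5098 FPKM in Rescue (log2 difference 4.004, SE 0.62, adjusted p 0.00113), and so was Fgf10, with 4.005 and 9.54 against 0.816 and 0.358 FPKM (log2 difference 2.21, SE 0.41, adjusted p 0.00268). Ligands therefore split, 3 of 6 called higher and 3 lower. Of 6 receptors and adaptors, 4 were called higher and 1 lower. Both lists stand beside 22.9% higher and 19% lower calls over all genes tested. The co-receptor Klb had 47.1 FPKM in 2.6Null and 28.3 FPKM in 3.34Null, against 0.0818 FPKM in 3WT and 0.0455 FPKM in Rescue (log2 difference 5.14, SE 0.82, adjusted p 0.00131). Fgfr3 had 18.4 FPKM in 2.6Null and 16.1 FPKM in 3.34Null, against 0.535 FPKM in 3WT and 0.499 FPKM in Rescue (log2 difference 3.59, SE 0.51, adjusted p 0.000773), and Fgfr4 had 11.8 and 15.01 against 1.14 and 0.598 FPKM (log2 difference 2.96, SE 0.54, adjusted p 0.00262). Fgfr1, the receptor of ESCs, fell, with 11.5 FPKM in 2.6Null and 12.97 FPKM in 3.34Null, against 37.01 FPKM in 3WT and 42.7 FPKM in Rescue (log2 difference -1.63, SE 0.28, adjusted p 0.00202). Fgfr2 had 1.72 and 1.33 against 1.79 and 2.05 FPKM and did not pass. The null lines thus held more of Fgfr3 and Fgfr4 transcript, and the present lines more of Fgfr1, on the FPKM scale that allows for transcript length.

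Of 10 feedback genes of the FGF and ERK route, 5 were called lower and 1 higher, beside 19% and 22.9% of all genes tested. Etv5, an ETS factor, had 16.3 FPKM in 2.6Null and 26.1 FPKM in 3.34Null, against 174 FPKM in 3WT and 100.2 FPKM in Rescue (log2 difference -2.62, SE 0.40, adjusted p 0.00106), and Etv1 had 0.585 and 1.002 against 5.99 and 4.67 FPKM (log2 difference -1.82, SE 0.34, adjusted p 0.00295). The inhibitor Spry1 had 3.76 and 4.21 against 14.1 and 13.2 FPKM (log2 difference -1.56, SE 0.41, adjusted p 0.0132). Dusp4, a phosphatase of ERK, rose, with 62.4 and 34.3 against 9.03 and 11.9 FPKM (log2 difference 2.06, SE 0.40, adjusted p 0.00347). Dusp6, Spry2 and Etv4 did not pass, and Dusp6 had 62.8 and 37.95 against 42.3 and 30.9 FPKM. Higher and lower calls of the feedback list were 1 and 2 without 2.6Null, 1 and 4 without 3.34Null, 1 and 2 without 3WT, and 1 and 4 without Rescue, and of the ligand list 2 and 1 without 2.6Null, 3 and 2 without 3.34Null, 2 and 1 without 3WT, and 2 and 3 without Rescue. Of the FGF pathway genes with values given, Fgf5 with the epiblast genes, the threshold was missed without 2.6Null by Fgf4 (adjusted p 0.09999), Fgf5 (adjusted p 0.215) and Spry1 (adjusted p 0.0769); without 3WT by Fgf4 (adjusted p 0.108), Fgf5 (adjusted p 0.0918) and Spry1 (adjusted p 0.0675); without Rescue by Fgf5 (adjusted p 0.0853).

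Genes of the BMP pathway were called in both directions, 5 of 13 ligands, receptors and targets higher and 1 lower, beside 22.9% and 19% of all genes tested. Bmp2 had 44.3 FPKM in 2.6Null and 43.7 FPKM in 3.34Null, against 0.0461 FPKM in 3WT and 0.2198 FPKM in Rescue (log2 difference 5.32, SE 0.31, adjusted p 1.16e-05), and both null libraries exceeded the XEN lines at 17.98 FPKM in XENB1 and 18.4 FPKM in XEN5. Bmp6 had 36.3 and 13.2 against 0.675 and 0.4995 FPKM (log2 difference 3.86, SE 0.67, adjusted p 0.00194), and the receptor Bmpr2 had 13.99 and 18.5 against 2.95 and 5.59 FPKM (log2 difference 1.75, SE 0.47, adjusted p 0.0154). Bmp7 fell, with 0.196 and 0.554 against 7.62 and 3.099 FPKM (log2 difference -2.12, SE 0.68, adjusted p 0.0311). The target Id1 did not pass, with 50.1 and 28.8 against 18.6 and 14.1 FPKM. Single libraries left out gave 3 and 0 without 2.6Null, 4 and 0 without 3.34Null, 3 and 0 without 3WT, and 6 and 1 without Rescue. Of the BMP genes with values given, the threshold was missed without 2.6Null by Bmp7 (adjusted p 0.153) and Bmpr2 (adjusted p 0.0541); without 3.34Null by Bmp7 (adjusted p 0.0681) and Bmpr2 (adjusted p 0.0716); without 3WT by Bmp7 (adjusted p 0.188) and Bmpr2 (adjusted p 0.111).

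Of 19 WNT pathway genes, 5 were called higher and 5 lower, shares near the 22.9% and 19% of all genes tested. The inhibitor Sfrp1 had 2.57 FPKM in 2.6Null and 5.36 FPKM in 3.34Null, against 56.5 FPKM in 3WT and 54.8 FPKM in Rescue (log2 difference -3.57, SE 0.53, adjusted p 0.000964), and the effector Lef1 had 2.24 and 4.28 against 30.05 and 10.8 FPKM (log2 difference -2.21, SE 0.42, adjusted p 0.00304). The ligand Wnt11 had 6.59 and 7.02 against 0.366 and 1.098 FPKM (log2 difference 2.204, SE 0.42, adjusted p 0.00309), with 67.4 FPKM in XENB1 and 70.5 FPKM in XEN5. Ctnnb1, which encodes beta-catenin, had 252 and 254 against 280.3 and 286 FPKM and did not pass. Targets and factors of YAP and TEAD, which report on cell shape and matrix contact, rose in 8 of 14 and fell in 1, with a median of 1.52. Ctgf, a secreted matricellular target, had 1653 FPKM in 2.6Null and 878 FPKM in 3.34Null, against 12.8 FPKM in 3WT and 81.97 FPKM in Rescue (log2 difference 5.16, SE 0.74, adjusted p 0.000837), and Cyr61 had 763 FPKM in 2.6Null and 401 FPKM in 3.34Null, against 11.9 FPKM in 3WT and 106 FPKM in Rescue (log2 difference 3.898, SE 0.85, adjusted p 0.00594). For both genes Rescue, which also had the highest feeder marker sum (1300 FPKM over 14 markers, against 38.3 FPKM in 3WT), stood over 6 times above 3WT and below both null libraries. Amotl2 had 125 and 84.2 against 10.1 and 19.9 FPKM (log2 difference 2.77, SE 0.46, adjusted p 0.00155), and Yap1 itself, with 50.3 and 62.8 against 61.7 and 55.9 FPKM, did not pass. Tead2 was the member that fell, with 28.3 and 52.6 against 122 and 77.3 FPKM (log2 difference -1.31, SE 0.37, adjusted p 0.0186). WNT calls higher and lower were 3 and 2 without 2.6Null, 3 and 4 without 3.34Null, 4 and 2 without 3WT, and 4 and 5 without Rescue, and YAP and TEAD calls were 5 and 0 without 2.6Null, 6 and 1 without 3.34Null, 7 and 0 without 3WT, and 8 and 1 without Rescue. For the WNT, YAP and TEAD genes named, the threshold was missed without 2.6Null by Cyr61 (adjusted p 0.0562) and Tead2 (adjusted p 0.157); without 3WT by Tead2 (adjusted p 0.136).

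Basement membrane genes with values above 0 in all 4 libraries mostly rose. Hspg2, which encodes perlecan, had 252 FPKM in 2.6Null and 264 FPKM in 3.34Null, against 24.4 FPKM in 3WT and 26.9 FPKM in Rescue (log2 difference 3.28, SE 0.50, adjusted p 0.00105). The nidogens, which join laminin to collagen IV, followed: Nid2 had 579 and 462 against 113 and 63.2 FPKM (log2 difference 2.601, SE 0.63, adjusted p 0.00969), and Nid1 had 182 and 316 against 43.7 and 72.7 FPKM (log2 difference 2.07, SE 0.45, adjusted p 0.00598). Lamb2 had 59.3 and 40.5 against 7.51 and 10.9 FPKM (log2 difference 2.31, SE 0.32, adjusted p 0.000755). Fn1, which encodes fibronectin, had 259 and 299 against 236 and 328 FPKM, the groups overlapped, and it did not pass. Col18a1 fell, with 13.3 and 18.96 against 125 and 86.6 FPKM (log2 difference -2.63, SE 0.33, adjusted p 0.000461). Of 16 genes in the list, 7 were called higher and 6 lower, beside 22.9% and 19% of all genes tested. Of those lower calls, 4 rest on values of exactly 0. Col4a1 and Col4a2, the collagen IV chains, are listed at 0 in both null libraries and both XEN lines, with 15.0 and 7.88 FPKM in 3WT and 99.4 and 63.2 FPKM in Rescue. Lamc1 is listed at 0 in the same libraries, with 109 FPKM in 3WT and 103 FPKM in Rescue. Sparc is listed at 0 there too, with 79.8 FPKM in 3WT and 475 FPKM in Rescue, and Lama1 with 3.504 and 4.72 FPKM. At cXENp1 these genes had values in every line, and in 2.6Null Col4a1 stood at 772 FPKM and Sparc at 852 FPKM. These 5 genes are known to be abundant in XEN cells, the laminin partner Lamb1 reached 1987 and 2933 FPKM in the null libraries, and genes that every cell uses are also listed at 0 in some libraries, so no fold is given. Eef1a1, a translation factor, is listed at 0 in both present libraries, with 4030 and 5177 FPKM in the null libraries, and Hsp90ab1 at 0 beside 1130 and 1571 FPKM. The 11 genes without a 0 had 7 higher and 2 lower calls and a median of 2.07, against -0.06 over all 16. Leaving out 1 library, the full list counted 4 and 4 without 2.6Null, 7 and 5 without 3.34Null, 4 and 6 without 3WT, and 6 and 4 without Rescue. Of the basement membrane genes with values above 0 given, the threshold was missed without 2.6Null by Nid2 (adjusted p 0.0685); without 3WT by Nid1 (adjusted p 0.0527); without Rescue by Nid2 (adjusted p 0.053).

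Enzymes that modify and fold collagen rose together with the secretory route. Of 18 collagen-modifying genes, 15 were called higher and 0 lower, beside 22.9% and 19% of all genes tested, with a median of 2.82. P4ha2, a prolyl hydroxylase subunit, had 684 FPKM in 2.6Null and 804 FPKM in 3.34Null, against 14.8 FPKM in 3WT and 25.2 FPKM in Rescue (log2 difference 5.19, SE 0.42, adjusted p 6.38e-05). Serpinh1, the collagen chaperone HSP47, had 2815 FPKM in 2.6Null and 4092 FPKM in 3.34Null, against 60.9 FPKM in 3WT and 282 FPKM in Rescue (log2 difference 4.68, SE 0.75, adjusted p 0.00134). Plod3, a lysyl hydroxylase, had 234 FPKM in 2.6Null and 301 FPKM in 3.34Null, against 20.7 FPKM in 3WT and 21.02 FPKM in Rescue (log2 difference 3.61, SE 0.35, adjusted p 0.000159). Rescue and 3WT were within 2 times of each other for Plod3 and P4ha2 and differed over 4 times for Serpinh1, and Rescue held the most feeder marker RNA. Leprel1, a prolyl hydroxylase for collagen IV, had 35.5 and 25.7 against 0.406 and 2.24 FPKM (log2 difference 3.87, SE 0.42, adjusted p 0.000247). Plod2 and P4ha1 had 496 and 478 against 35.3 and 57.1 FPKM and 434 and 374 against 37.3 and 41.003 FPKM (adjusted p 0.00134 and 0.00425). Lox and Fkbp10 did not pass and were high in Rescue: Lox had 70.6 and 42.02 against 2.93 and 65.9 FPKM, and Fkbp10 had 88.2 and 27.3 against 18.2 and 60.01 FPKM. Of 29 genes of the endoplasmic reticulum and secretory route, 28 were called higher and 0 lower, with a median of 1.66. Creb3l2, a membrane-bound factor of secretory genes, had 129 FPKM in 2.6Null and 58.5 FPKM in 3.34Null, against 3.49 FPKM in 3WT and 6.05 FPKM in Rescue (log2 difference 3.96, SE 0.54, adjusted p 0.000657), and Creb3l1 had 85.1 and 102 against 7.15 and 17.03 FPKM (log2 difference 2.96, SE 0.45, adjusted p 0.00101). The retrieval receptor Kdelr3 had 288 and 317 against 18.01 and 37.1 FPKM (log2 difference 3.49, SE 0.50, adjusted p 0.000837), and the cargo receptor Tmed3 had 174 and 103 against 12.1 and 18.5 FPKM (log2 difference 3.08, SE 0.31, adjusted p 0.000182). Sec23b was the tested member that did not pass, with 44.7 and 51.6 against 43.2 and 43.1 FPKM. None of the called genes named here lost its call when 1 of the 4 libraries was left out.

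Most genes tested of endocytosis and the lysosome, which serve protein uptake in yolk sac endoderm, were called higher in the null lines. Of 24 endocytic genes, 14 were called higher and 3 lower, beside 22.9% and 19% of all genes tested. Lrpap1, the chaperone of LDL receptor relatives, had 819.7 FPKM in 2.6Null and 611 FPKM in 3.34Null, against 18.2 FPKM in 3WT and 17.2 FPKM in Rescue (log2 difference 5.24, SE 0.77, adjusted p 0.000905). Lrp2, which encodes megalin, had 17.9 FPKM in 2.6Null and 28.9 FPKM in 3.34Null, against 2.68 FPKM in 3WT and 2.402 FPKM in Rescue (log2 difference 2.75, SE 0.44, adjusted p 0.00136). Rab11fip5, an effector of recycling endosomes, had 45.7 and 36.6 against 2.71 and 3.15 FPKM (log2 difference 3.42, SE 0.34, adjusted p 0.000184). The folate receptor Folr1 fell, with 2.81 and 3.07 against 23.5 and 20.8 FPKM (log2 difference -2.55, SE 0.86, adjusted p 0.0366). Of 41 lysosomal genes, 32 were called higher and 0 lower, with a median of 1.81. The protease Ctsh had 161 FPKM in 2.6Null and 105 FPKM in 3.34Null, against 0.864 FPKM in 3WT and 2.19 FPKM in Rescue (log2 difference 5.75, SE 0.49, adjusted p 8.37e-05). Ctsl, a cathepsin abundant in yolk sac, had 3957 FPKM in 2.6Null and 1083 FPKM in 3.34Null, against 124 FPKM in 3WT and 132 FPKM in Rescue (log2 difference 4.001, SE 0.74, adjusted p 0.00262). Both genes were higher in 2.6Null than in 3.34Null. Lgmn, an asparagine protease, had 322 and 346 against 29.01 and 25.4 FPKM (log2 difference 3.57, SE 0.81, adjusted p 0.00694), and the membrane protein Cd63 had 1665 and 1132 against 75.2 and 187 FPKM (log2 difference 3.52, SE 0.53, adjusted p 0.000988). Endocytic calls higher and lower were 7 and 1 without 2.6Null, 12 and 0 without 3.34Null, 9 and 0 without 3WT, and 11 and 2 without Rescue. Of the uptake and lysosome genes with values given, Cubn and Dab2 with the XEN markers, the threshold was missed without 2.6Null by Cubn (adjusted p 0.0808), Dab2 (adjusted p 0.0809) and Folr1 (adjusted p 0.146); without 3.34Null by Cubn (adjusted p 0.112) and Folr1 (adjusted p 0.0974); without 3WT by Cubn (adjusted p 0.0884), Dab2 (adjusted p 0.0877) and Folr1 (adjusted p 0.135); without Rescue by Cubn (adjusted p 0.0857) and Folr1 (adjusted p 0.0871).

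Solute carriers were called higher more often than lower, 90 against 28 of 238, with a median of 0.51. Over all genes tested, 22.9% were called higher and 19% lower, and the RAB genes below are read against the same shares. The metal transporter Slc39a8 had 40.2 FPKM in 2.6Null and 36.1 FPKM in 3.34Null, against 0.348 FPKM in 3WT and 0.302 FPKM in Rescue (log2 difference 4.88, SE 0.67, adjusted p 0.000706), and the phosphate transporter Slc34a2 had 35.9 and 12.2 against 0.0768 and 0.0132 FPKM (log2 difference 4.400, SE 0.38, adjusted p 9.39e-05). Slc38a4, an amino acid transporter, fell, with 1.78 and 9.64 against 76.4 and 83.9 FPKM (log2 difference -3.897, SE 0.90, adjusted p 0.00752). RAB GTPases and their partners had 28 higher and 9 lower calls of 70, and Rab15 had 23.2 and 30.9 against 4.87 and 2.75 FPKM (log2 difference 2.56, SE 0.29, adjusted p 0.000303). Rab3il1 had 24.8 and 33.5 against 2.82 and 1.81 FPKM (log2 difference 3.19, SE 0.51, adjusted p 0.00136). Solute carrier calls were 55 and 16 without 2.6Null, 96 and 23 without 3.34Null, 60 and 15 without 3WT, and 80 and 27 without Rescue, and RAB calls 15 and 4 without 2.6Null, 27 and 4 without 3.34Null, 16 and 1 without 3WT, and 21 and 6 without Rescue. Of the transporter and RAB genes with values given, the threshold was missed without 2.6Null by Slc38a4 (adjusted p 0.0771).

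Several families that mark attached, spread or epithelial cells had more higher than lower calls, beside 22.9% higher and 19% lower over all genes tested. Keratins had 7 higher and 1 lower calls of 13 tested. Krt14, Krt23 and Krt6a are listed at 0 in 3WT, and the 10 others had 4 higher and 1 lower calls with a median of 0.73, against 1.41 over all 13. Krt19 had 86.8 and 18.3 against 3.698 and 3.06 FPKM (log2 difference 3.24, SE 0.61, adjusted p 0.00285). Of 7 S100 calcium-binding proteins, 5 were called higher, and S100a13 had 139 FPKM in 2.6Null and 37.7 FPKM in 3.34Null, against 2.24 FPKM in 3WT and 5.35 FPKM in Rescue (log2 difference 4.02, SE 0.56, adjusted p 0.000759). S100a1 had 123 and 53.6 against 4.703 and 4.18 FPKM (log2 difference 3.92, SE 0.76, adjusted p 0.00327). Annexins, which bind membranes, had 5 higher calls of 10, and Anxa2 had 923 and 597 against 98.9 and 155 FPKM (log2 difference 2.57, SE 0.50, adjusted p 0.00347). Serpins had 9 higher calls of 14, and Serpinb9b had 175 and 33.4 against 0.635 and 4.003 FPKM (log2 difference 4.76, SE 0.94, adjusted p 0.00356). Of 11 integrin chains, 7 were called higher and 1 lower: Itgb5 had 138 and 72.3 against 15.99 and 26.8 FPKM (log2 difference 2.21, SE 0.31, adjusted p 0.000779), and Itgav had 50.1 and 41.6 against 8.95 and 19.4 FPKM (log2 difference 1.71, SE 0.38, adjusted p 0.00611). Itga9 fell, with 0.763 and 1.097 against 4.87 and 4.77 FPKM (log2 difference -1.598, SE 0.45, adjusted p 0.0173). Among genes of the mesenchymal switch 7 of 19 were called higher. Snai1, the repressor of E-cadherin, had 80.1 FPKM in 2.6Null and 161 FPKM in 3.34Null, against 1.32 FPKM in 3WT and 5.65 FPKM in Rescue (log2 difference 4.87, SE 0.66, adjusted p 0.000638). Cdh1, which encodes E-cadherin, had 41.3 FPKM in 2.6Null and 39.9 FPKM in 3.34Null, against 122 FPKM in 3WT and 73.2 FPKM in Rescue (log2 difference -1.198, SE 0.33, adjusted p 0.0172), and its null libraries stayed above the XEN lines at 4.28 FPKM in XENB1 and 0.6099 FPKM in XEN5. Esrp2, an epithelial splicing factor, rose, with 10.2 and 11.5 against 1.31 and 1.23 FPKM (log2 difference 2.38, SE 0.25, adjusted p 0.000211). The mesenchymal list counted 2 and 0 without 2.6Null, 6 and 0 without 3.34Null, 3 and 4 without 3WT, and 17 and 0 without Rescue, where Rescue has the most feeder marker RNA. Integrins counted 4 and 0 without 2.6Null, 5 and 1 without 3.34Null, 3 and 0 without 3WT, and 8 and 0 without Rescue. The S100 proteins counted 3 and 0 without 2.6Null, 4 and 0 without 3.34Null, 3 and 0 without 3WT, and 5 and 0 without Rescue. Serpins counted 6 and 0 without 2.6Null, 10 and 0 without 3.34Null, 6 and 0 without 3WT, and 12 and 0 without Rescue. Annexins counted 4 and 0 without 2.6Null, 5 and 0 without 3.34Null, 5 and 1 without 3WT, and 8 and 1 without Rescue. Epithelial adhesion genes had 4 higher and 1 lower calls of 20, under the 22.9% and 19% of all genes tested, and 2 and 0 without 2.6Null, 4 and 0 without 3.34Null, 9 and 0 without 3WT, and 4 and 3 without Rescue. Of the family members with values given, the threshold was missed without 2.6Null by Cdh1 (adjusted p 0.0755), Itga9 (adjusted p 0.101) and Itgav (adjusted p 0.05001); without 3.34Null by Cdh1 (adjusted p 0.0576); without 3WT by Cdh1 (adjusted p 0.137), Itga9 (adjusted p 0.0748) and Itgav (adjusted p 0.0525); without Rescue by Itga9 (adjusted p 0.0514).

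Of 22 glycolytic genes, 11 were called lower in the null lines and 0 higher, beside 19% and 22.9% of all genes tested, with a median of -0.98. Fewer were called without 2.6Null or without 3WT: lower calls numbered 4 without 2.6Null, 10 without 3.34Null, 4 without 3WT and 12 without Rescue. Ldhb, a lactate dehydrogenase subunit, had 45.1 FPKM in 2.6Null and 46.95 FPKM in 3.34Null, against 455 FPKM in 3WT and 241 FPKM in Rescue (log2 difference -2.82, SE 0.66, adjusted p 0.00813). Pdk1, a kinase that restrains pyruvate entry to mitochondria, had 11.9 FPKM in 2.6Null and 21.4 FPKM in 3.34Null, against 94.9 FPKM in 3WT and 50.8 FPKM in Rescue (log2 difference -2.05, SE 0.36, adjusted p 0.00219). Pfkp had 9.3002 and 11.3 against 51.3 and 36.1 FPKM (log2 difference -1.96, SE 0.34, adjusted p 0.00208). The glucose transporter Slc2a1 had 112 and 120.2 against 567 and 313 FPKM, and pyruvate kinase Pkm had 582 and 738 against 2707 and 1482 FPKM (adjusted p 0.00429 and 0.0035). In these genes 3WT was the highest library. Cholesterol synthesis genes had 8 lower and 3 higher calls of 23. Fdps, a synthase of the isoprenoid route, had 30.6 FPKM in 2.6Null and 37.4 FPKM in 3.34Null, against 136 FPKM in 3WT and 113 FPKM in Rescue (log2 difference -1.84, SE 0.37, adjusted p 0.00405), and Acat2 had 11.2 and 18.6 against 45.6 and 44.4 FPKM (log2 difference -1.57, SE 0.24, adjusted p 0.00107). Ebp rose, with 65.4 and 45.5 against 15.96 and 15.003 FPKM (log2 difference 1.75, SE 0.39, adjusted p 0.00652). Calls of this list were 0 and 4 without 2.6Null, 2 and 8 without 3.34Null, 2 and 4 without 3WT, and 2 and 9 without Rescue. TCA cycle genes had 2 higher and 5 lower calls of 22, beside 22.9% and 19% of all genes tested, and 1 and 0 without 2.6Null, 0 and 6 without 3.34Null, 1 and 0 without 3WT, and 0 and 3 without Rescue. Of the metabolic genes with values given, the threshold was missed without 2.6Null by Ebp (adjusted p 0.0605) and Ldhb (adjusted p 0.052); without 3WT by Ldhb (adjusted p 0.0651).

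Some cell cycle drivers were lower in the null lines, and nearly all of these calls rested on 2.6Null and 3WT. Of 26 tested, 10 were called lower and 2 higher, beside 19% and 22.9% of all genes tested, with a median of -0.76. The cell cycle inhibitors below are read against the same shares. The number called lower was 1 without 2.6Null, 18 without 3.34Null, 1 without 3WT and 11 without Rescue. Mcm6, a subunit of the replicative helicase, had 30.2 FPKM in 2.6Null and 86.1 FPKM in 3.34Null, against 295 FPKM in 3WT and 172 FPKM in Rescue (log2 difference -2.12, SE 0.49, adjusted p 0.00775). Ccnb2, a mitotic cyclin, had 17.9 FPKM in 2.6Null and 41.8 FPKM in 3.34Null, against 139 FPKM in 3WT and 79.2 FPKM in Rescue (log2 difference -1.897, SE 0.40, adjusted p 0.00512). For both, 3.34Null held over 2 times the level of 2.6Null. The proliferation marker Mki67 had 11.7 and 30.3 against 21.7 and 14.5 FPKM, overlapped between the groups and did not pass. Ccnd2, a cyclin of the first growth phase, rose, with 264 and 66.5 against 18.95 and 61.5 FPKM (log2 difference 1.92, SE 0.66, adjusted p 0.0409). Cdkn1c, a kinase inhibitor, fell, with 3.04 and 7.68 against 30.1 and 71.2 FPKM (log2 difference -3.001, SE 0.80, adjusted p 0.0142), and Cdkn2c rose, with 4.18 and 6.62 against 0.5096 and 1.098 FPKM (log2 difference 1.82, SE 0.37, adjusted p 0.00436). Cdkn1a had 477 and 203 against 55.8 and 126 FPKM and did not pass (adjusted p 0.0716). Cell cycle inhibitors as a list had 2 higher and 1 lower calls of 9, and 1 and 0 without 2.6Null, 2 and 1 without 3.34Null, 2 and 1 without 3WT, and 4 and 0 without Rescue. Of the cell cycle genes with values given, the threshold was missed without 2.6Null by Ccnd2 (adjusted p 0.336), Cdkn1c (adjusted p 0.114) and Mcm6 (adjusted p 0.0685); without 3WT by Ccnd2 (adjusted p 0.284) and Mcm6 (adjusted p 0.0649); without Rescue by Cdkn1c (adjusted p 0.079).

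Most ribosomal protein genes were lower in the null lines, and most of these calls also rested on 2.6Null and 3WT. Of 52 large-subunit genes 37 were called lower and 1 higher (median -0.93), and of 43 small-subunit genes 25 lower and 3 higher (median -0.90). Over all genes tested, 19% were called lower and 22.9% higher. These genes made up 14.5% of all FPKM in 2.6Null, 18.2% in 3.34Null, 29.5% in 3WT and 26.7% in Rescue, beside 23.2% in XENB1 and 20.6% in XEN5. The lower calls of the large subunit were 5 without 2.6Null, 40 without 3.34Null, 5 without 3WT and 32 without Rescue, and of the small subunit 1 without 2.6Null, 27 without 3.34Null, 1 without 3WT and 22 without Rescue. Quantile normalization gave 28 and 13 lower calls, and testing every gene with any value above 0 gave 15 and 6. A fit of the 4 cXENp3 libraries alone gave 3 and 1. Paralogs that ESCs and germ cells favour fell more: Rpl10l had 2.17 and 4.604 against 38.2 and 39.5 FPKM (log2 difference -3.24, SE 0.67, adjusted p 0.00453), and Rpl39l had 3.64 and 4.19 against 28.6 and 35.3 FPKM (log2 difference -2.74, SE 0.26, adjusted p 0.000136). Such copies can share reads with their parent genes, so their values are uncertain. Mitochondrial ribosomal genes had 15 lower and 2 higher calls of 46, and 1 and 5 without 2.6Null, 1 and 18 without 3.34Null, 0 and 5 without 3WT, and 1 and 13 without Rescue. None of the called genes named here lost its call when 1 of the 4 libraries was left out.

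Several chromatin enzymes that ESCs express highly were lower in the null lines. Of 9 genes of DNA methylation and its removal, 5 were called lower and 1 higher, beside 19% and 22.9% of all genes tested. Tet1, a dioxygenase of methylcytosine, had 1.88 FPKM in 2.6Null and 10.2 FPKM in 3.34Null, against 30.8 FPKM in 3WT and 21.4 FPKM in Rescue (log2 difference -2.23, SE 0.56, adjusted p 0.0111). Tet3 was the member that rose, with 9.52 FPKM in 2.6Null and 8.8002 FPKM in 3.34Null, against 0.642 FPKM in 3WT and 1.295 FPKM in Rescue (log2 difference 2.39, SE 0.26, adjusted p 0.000241). Dnmt3a, a de novo methyltransferase, had 7.91 and 7.73 against 30.3 and 26.2 FPKM (log2 difference -1.73, SE 0.33, adjusted p 0.00317), and the maintenance cofactor Uhrf1 had 25.6 and 80.5 against 168 and 101 FPKM (log2 difference -1.495, SE 0.44, adjusted p 0.0217). Dnmt3l did not pass, with 2.11 and 13.99 against 101 and 40.7 FPKM (adjusted p 0.0733). Polycomb complex PRC2, which methylates histone H3, had 6 lower and 2 higher calls of 12 subunits. Its accessory subunit Jarid2 had 12.3 FPKM in 2.6Null and 26.7 FPKM in 3.34Null, against 84.5 FPKM in 3WT and 80.3 FPKM in Rescue (log2 difference -2.12, SE 0.34, adjusted p 0.00147), and Mtf2 had 11.1 and 22.98 against 70.8 and 66.1 FPKM (log2 difference -2.03, SE 0.27, adjusted p 0.000598). The catalytic subunit Ezh2 had 20.03 and 36.96 against 92.6 and 63.04 FPKM (log2 difference -1.45, SE 0.30, adjusted p 0.00427), and Phf1 rose, with 13.3 and 5.52 against 1.78 and 2.41 FPKM (log2 difference 1.65, SE 0.39, adjusted p 0.00904). Of 13 known partners and relatives of ZFP281, 1 was called higher and 4 lower: Hdac1 had 56.9 and 76.8 against 160.5 and 126 FPKM (log2 difference -1.095, SE 0.33, adjusted p 0.0226), and Hdac2 had 43.6 and 59.2 against 96.4 and 87.8 FPKM (log2 difference -0.84, SE 0.21, adjusted p 0.0116). Higher and lower calls of the partners were 0 and 1 without 2.6Null, 0 and 3 without 3.34Null, 0 and 1 without 3WT, and 0 and 4 without Rescue. Lin28a, an RNA-binding protein of ESCs, had 4.14 and 15.7 against 106 and 62.4 FPKM (log2 difference -3.15, SE 0.70, adjusted p 0.00624), while XENB1 and XEN5 kept 91.6 and 96.1 FPKM. Calls of the methylation list were 1 and 1 without 2.6Null, 1 and 5 without 3.34Null, 1 and 1 without 3WT, and 1 and 5 without Rescue, and of PRC2 1 and 4 without 2.6Null, 2 and 6 without 3.34Null, 1 and 4 without 3WT, and 2 and 5 without Rescue. Of the chromatin and RNA regulators with values given, the threshold was missed without 2.6Null by Hdac1 (adjusted p 0.148), Hdac2 (adjusted p 0.0863), Lin28a (adjusted p 0.065), Phf1 (adjusted p 0.0795), Tet1 (adjusted p 0.0796) and Uhrf1 (adjusted p 0.151); without 3WT by Hdac1 (adjusted p 0.13), Hdac2 (adjusted p 0.0704), Phf1 (adjusted p 0.0597), Tet1 (adjusted p 0.0744) and Uhrf1 (adjusted p 0.148).

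Of 18 genes of retinoic acid metabolism and response, 3 were called higher and 3 lower, under the 22.9% and 19% of all genes tested. Stra6, the receptor for retinol-binding protein, had 36.7 FPKM in 2.6Null and 39.5 FPKM in 3.34Null, against 0.203 FPKM in 3WT and 0.419 FPKM in Rescue (log2 difference 4.901, SE 0.31, adjusted p 1.51e-05). Cyp26a1, the hydroxylase that clears retinoic acid, had 35.8 FPKM in 2.6Null and 49.8 FPKM in 3.34Null, against 0.903 FPKM in 3WT and 0.776 FPKM in Rescue (log2 difference 4.56, SE 0.27, adjusted p 1.16e-05), and the XEN lines had 69.7 FPKM in XENB1 and 69.5 FPKM in XEN5. Rbp4, the plasma carrier of retinol, had 9.89 and 11.6 against 1.47 and 2.57 FPKM (log2 difference 1.98, SE 0.59, adjusted p 0.0227). The germline target Stra8, given above, fell. Higher and lower calls were 2 and 1 without 2.6Null, 5 and 3 without 3.34Null, 2 and 2 without 3WT, and 5 and 3 without Rescue. Of the retinoid genes with values given, the threshold was missed without 2.6Null by Rbp4 (adjusted p 0.0871); without 3.34Null by Rbp4 (adjusted p 0.0835); without 3WT by Rbp4 (adjusted p 0.125).

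Markers of other cell types were read in the same libraries. Fibroblast feeders are present at passage 2, and 14 feeder markers summed to 401 FPKM in 2.6Null, 308 FPKM in 3.34Null, 38.3 FPKM in 3WT and 1300 FPKM in Rescue, beside 678 FPKM in XENB1 and 583 FPKM in XEN5. Rescue and 3WT thus lay on either side of both null libraries, and 3 of the 14 markers are listed at 0 in 3WT. Col1a1, a collagen of fibroblasts, had 168 FPKM in 2.6Null and 133 FPKM in 3.34Null, against 17.5 FPKM in 3WT and 509 FPKM in Rescue. Col3a1 had 20.8 and 29.98 against 4.21 and 305 FPKM, and Dcn had 3.27 and 1.86 against 0.163 and 27.9 FPKM. Of 12 tested, 2 were called higher and 0 lower, and 0 and 0 without 2.6Null, 2 and 0 without 3.34Null, 0 and 6 without 3WT, and 9 and 0 without Rescue. Twist2 and Mfap5, the markers called higher, had 7.26 and 4.21 against 0.503 and 2.69 FPKM and 6.17 and 5.41 against 1.02 and 3.18 FPKM. Matrix, mesenchymal, YAP and collagen-modifying genes above, such as Lox, Ctgf and Sparc, were also higher in Rescue than in 3WT, and the part of feeder RNA in their values was not tested. Trophoblast markers had 3 higher and 2 lower calls of 9 tested, and Rhox6 had 9.54 and 7.23 against 0.266 and 1.31 FPKM. Mesoderm and definitive endoderm markers had 2 and 2 of 8, and 6 more were too low to test. Neural markers had 3 and 2 of 11, and Sox21 had 20.8 and 39.7 against 3.57 and 2.35 FPKM (log2 difference 2.93, SE 0.33, adjusted p 0.000294). Genes of the two-cell-like state had 0 and 1 of 10. Over all genes tested, 22.9% were called higher and 19% lower. Left-out libraries gave the trophoblast list 2 and 0 without 2.6Null, 3 and 0 without 3.34Null, 2 and 0 without 3WT, and 3 and 1 without Rescue, and the mesoderm list 1 and 1 without 2.6Null, 2 and 2 without 3.34Null, 0 and 1 without 3WT, and 2 and 2 without Rescue. The neural list had 3 and 1 without 2.6Null, 3 and 2 without 3.34Null, 3 and 1 without 3WT, and 4 and 3 without Rescue. The two-cell-like list had 0 and 0 without 2.6Null, 0 and 1 without 3.34Null, 0 and 4 without 3WT, and 0 and 0 without Rescue, and its median was -0.52 with all 4 libraries and -0.95 without 3WT. Among the markers with values given, the threshold was missed without 2.6Null by Mfap5 (adjusted p 0.101) and Twist2 (adjusted p 0.153); without 3WT by Mfap5 (adjusted p 0.15) and Twist2 (adjusted p 0.17).

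The remaining lists were read against the 22.9% higher and 19% lower calls of all genes tested. Zfp genes, a large family of zinc finger factors, had 47 higher and 46 lower calls of 320, and 11 and 23 without 2.6Null, 36 and 41 without 3.34Null, 13 and 21 without 3WT, and 37 and 44 without Rescue. With quantile normalization they had 32 and 64. Both shares lay under those of all genes in the fit of all libraries, and the fewest were called without 2.6Null or without 3WT. Hox genes, which pattern the body axis, had 5 higher and 3 lower calls of 34, and 1 and 1 without 2.6Null, 3 and 1 without 3.34Null, 2 and 2 without 3WT, and 4 and 2 without Rescue. Forkhead factors had 8 higher and 5 lower calls of 32, and 5 and 4 without 2.6Null, 8 and 5 without 3.34Null, 6 and 4 without 3WT, and 9 and 5 without Rescue. SOX factors had 4 higher and 4 lower calls of 17, and 4 and 2 without 2.6Null, 4 and 4 without 3.34Null, 4 and 2 without 3WT, and 4 and 4 without Rescue. Without chromosomes 1, 6, 14 and Y, SOX factors had 0 higher and 4 lower calls of 12, and Hox genes 5 and 0 of 23. Kruppel-like factors had 1 higher and 2 lower calls of 14, and 1 and 1 without 2.6Null, 1 and 1 without 3.34Null, 1 and 1 without 3WT, and 1 and 3 without Rescue.

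Collagen genes, many of which fibroblasts make, had 4 higher and 6 lower calls of 30, and 1 and 3 without 2.6Null, 2 and 4 without 3.34Null, 1 and 11 without 3WT, and 20 and 4 without Rescue. These counts moved with Rescue and 3WT, the libraries with the most and the least feeder marker RNA, and its part in them was not tested. These lists too are read against the 22.9% higher and 19% lower calls of all genes tested. Among guidance genes, semaphorins had 5 higher and 6 lower calls of 19, and 5 and 5 without 2.6Null, 5 and 4 without 3.34Null, 5 and 5 without 3WT, and 5 and 5 without Rescue. Ephrin receptors had 4 higher and 1 lower calls of 12, and 4 and 0 without 2.6Null, 5 and 0 without 3.34Null, 4 and 1 without 3WT, and 4 and 1 without Rescue. All integrin genes taken by symbol had 8 higher and 2 lower calls of 15, and 6 and 0 without 2.6Null, 6 and 2 without 3.34Null, 5 and 1 without 3WT, and 10 and 1 without Rescue. Claudins, which seal tight junctions, had 2 higher and 1 lower calls of 11, and 1 and 0 without 2.6Null, 2 and 1 without 3.34Null, 4 and 0 without 3WT, and 1 and 1 without Rescue. Aquaporins, the water channels, had 2 higher and 1 lower calls of 6, with or without any 1 library. Plasma proteins, which visceral endoderm secretes, had 2 higher and 2 lower calls of 14, and 1 and 0 without 2.6Null, 0 and 1 without 3.34Null, 1 and 0 without 3WT, and 3 and 2 without Rescue. Proteasome genes had 0 higher and 6 lower calls of 48, and 0 and 6 without 2.6Null, 0 and 9 without 3.34Null, 0 and 3 without 3WT, and 0 and 7 without Rescue. Complex I genes of the respiratory chain had 1 higher and 5 lower calls of 22, and 0 and 3 without 2.6Null, 1 and 7 without 3.34Null, 1 and 2 without 3WT, and 0 and 6 without Rescue. RNA regulators of the oncofetal kind, such as Lin28a, had 0 higher and 4 lower calls of 11, and 0 and 1 without 2.6Null, 0 and 5 without 3.34Null, 0 and 2 without 3WT, and 0 and 4 without Rescue. Housekeeping genes had 3 higher and 3 lower calls of 12, and 3 and 1 without 2.6Null, 3 and 4 without 3.34Null, 3 and 1 without 3WT, and 3 and 2 without Rescue, and 2 of the higher calls are Eef1a1 and Hsp90ab1, given above as listed at 0 in the present libraries. Y-linked genes had 0 higher and 1 lower calls of 3, with or without any 1 library.

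The replicate lines differed in a directed way. Of 2512 genes called lower, 81.8% were higher in 3.34Null than in 2.6Null, against 50.2% of all genes tested. Of the same genes, 83.0% were lower in Rescue than in 3WT. Over all genes tested, 41.1% were higher in Rescue, so lower was the more common direction there too. Among 3016 genes called higher, 27.4% were higher in 3.34Null than in 2.6Null, and 67.8% were higher in Rescue than in 3WT, against 41.1% of all genes tested. The labels give 3.34Null and Rescue the same parent line, yet Rescue lacked the 3.34Null offsets on chromosome 14 and in the chromosome 6 segment. The difference between 3.34Null and Rescue reached 1 on the log2 scale in 1781 genes called higher and in 933 called lower. The median absolute gap over all genes was 0.32 between the null lines, 0.29 between 3WT and Rescue, and 0.67 between the null and the present means. These shares describe genes that were called on the same libraries and carry no test.

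The level of each gene in the null lines was set beside the established XEN lines. Of the 2952 genes called higher that had a value above 0 in each of the 4 libraries, 86.6% lay within 1 log2 unit of the XEN mean in the null lines, and 41.5% did in the present lines. Of the 2437 genes called lower, 88.8% lay within 1 unit in the null lines and 45.5% in the present lines. Over all genes tested, those with a value of 0 included, the shares were 90.6% and 68.6%. The called genes were picked by their null-present difference in the same libraries. The gap between their shares thus partly follows from the call and carries no test. Genes at least 1 unit above the XEN lines made up 10.5% of those called higher and 7.71% of those called lower, against 6.44% of all. Aqp8 and Clu, given above, were among the former.

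The null effect on these genes was larger at passage 3 than before. The median log2 difference of the genes called higher at cXENp3 was 0.08 in ESCs, 0.25 at cXENp1 and 1.41 at cXENp3, and that of the genes called lower was -0.10, -0.11 and -1.17. At cXENp1, 75.6% of the genes called higher had the same sign, against 54.3% of all genes tested, and 63.9% of the genes called lower, against 45.4%. For ESCs the shares were 59.0% against 48.7%, and 57.3% against 50.5%. The genes were called at cXENp3, so these medians and shares carry no test. Tests of the change in effect called 1510 genes (11.4%) between cXENp1 and cXENp3, 948 (7.19%) of which moved up and 562 (4.26%) down in null minus present. Between ESC and cXENp3, 2975 genes (22.6%) were called, 1807 (13.7%) up and 1168 (8.85%) down. The first count was 467 without 2.6Null, 2539 without 3.34Null, 403 without 3WT and 2077 without Rescue, and the second was 1350, 3545, 1450 and 2835. In the sample descriptions the ESC libraries of 3WT, 3.34Null and Rescue carry the prefix JH and all others XH. What the prefixes stand for is not given in the sources used here, and for those 3 lines it cannot be told apart from the ESC stage.

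**Figure D4:**
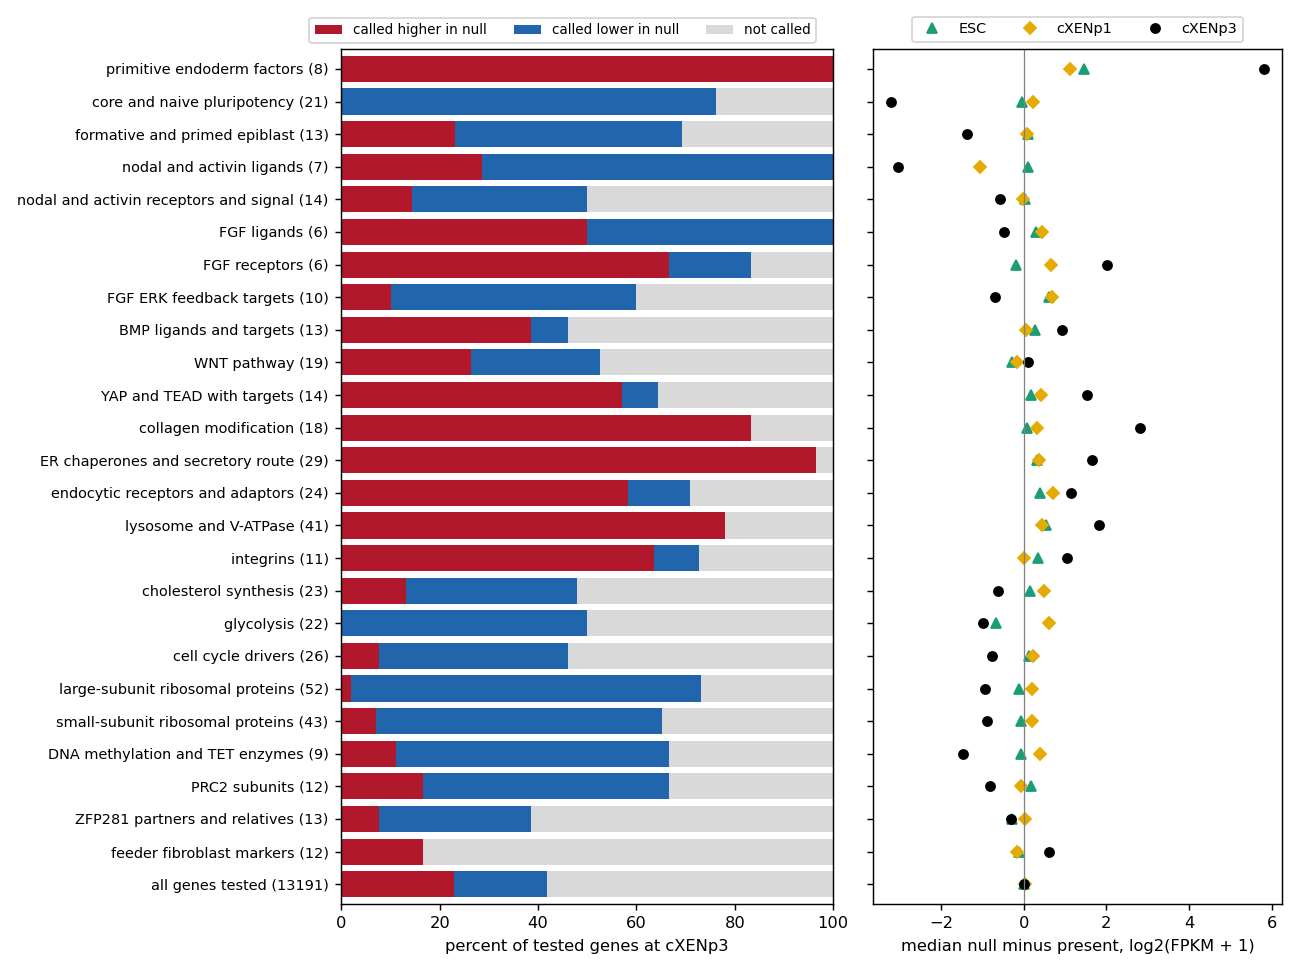
Left, share of each list's tested genes (number in brackets) called higher (red), lower (blue) or not called (grey) in null against present lines at cXENp3. Right, the list's median null-minus-present difference in log2(FPKM + 1) in ESCs (triangles), at cXENp1 (diamonds) and at cXENp3 (circles); the bottom line gives all 13191 genes, 22.9% higher and 19% lower, with medians near 0, and the medians of the primitive endoderm and pluripotency lists at cXENp3 are 5.81 and -3.21.

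The primitive endoderm list differed between the lines before passage 3. Its median log2 level in ESCs was 2.62 in 2.6Null, 0.62 in 3.34Null, 0.202 in 3WT and 0.11 in Rescue. At cXENp1 it was 4.904, 2.73, 1.83 and 1.42, and at cXENp3 it was 6.31, 6.44, 0.49 and 0.38. The median null-minus-present difference was 1.45, 1.13 and 5.81 at the 3 stages. Foxa2 overlapped between the groups at cXENp1, with 18.9 and 7.42 FPKM in the null and 3.903 and 23.7 FPKM in the present lines, and its effect grew by 5.799 to cXENp3 (SE 0.95, adjusted p 0.00808). Gata4 had 91.2 and 4.57 FPKM against 2.72 and 0.923 FPKM at cXENp1, and the growth of its effect missed the threshold (log2 4.74, adjusted p 0.0644). Nanog had 2.24 and 5.87 FPKM in the null and 3.15 and 5.13 FPKM in the present lines at cXENp1, and 259.7, 321, 239 and 271 FPKM in ESCs. The effect on Nanog changed by -4.73 from cXENp1 to cXENp3 (SE 1.20, adjusted p 0.0342). Both present lines thus held over 30 times more Nanog at cXENp3 than at cXENp1, and 3.34Null under 5 times more, while 2.6Null held less.

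**Figure D5:**
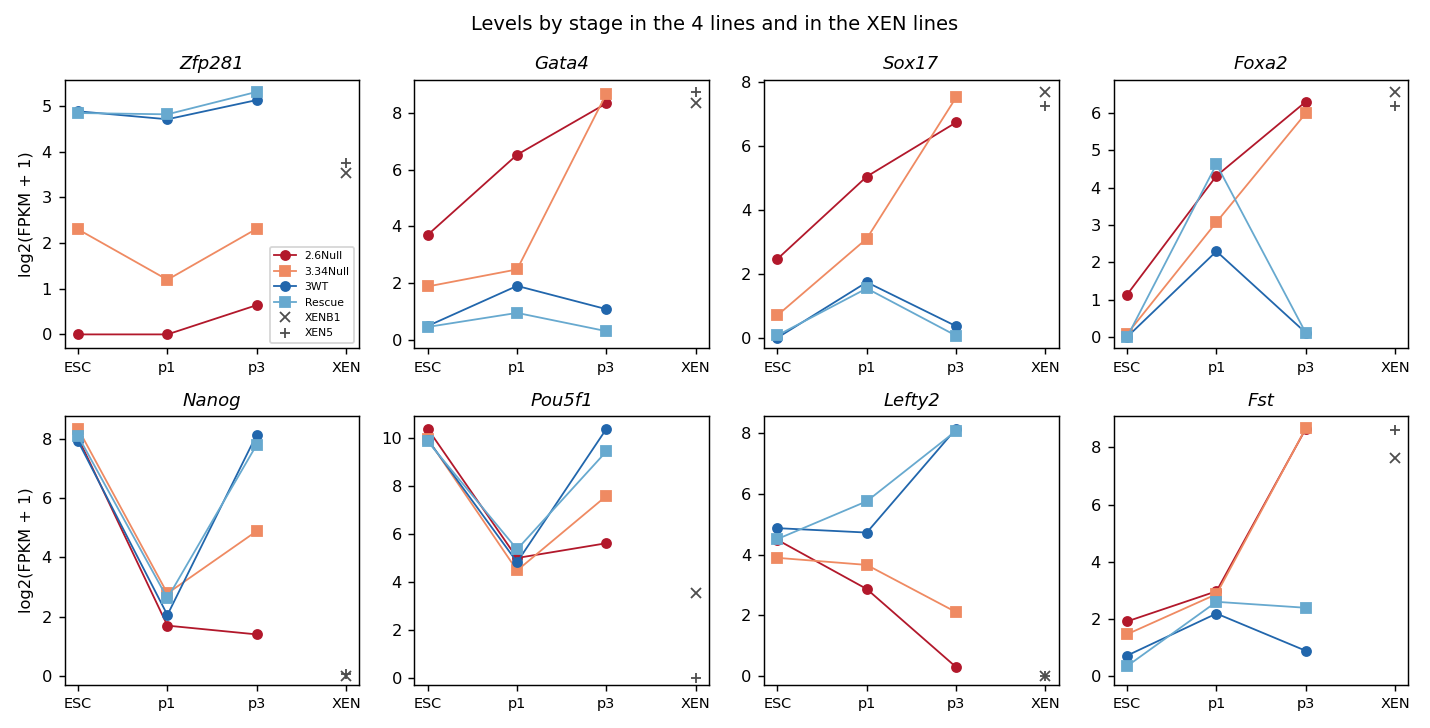
log2(FPKM + 1) of 8 genes by stage (ESC, cXENp1, cXENp3) in 2.6Null, 3.34Null, 3WT and Rescue, 1 library per point, with XENB1 and XEN5 at the right. Gata4, Sox17, Foxa2 and Fst rise to the XEN level in both null lines at cXENp3, and Nanog, Pou5f1 and Lefty2 stand higher in both present lines at that stage.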

How the data were processed

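Poly(A) RNA-seq was done with paired reads of 150 bp on a HiSeq instrument, per the labels' protocols. STAR 2.5.3, Cufflinks 2.1.1 and the build mm9 are named in the submitters' processing notes. The authors deposited 1 table of 23174 gene loci with values per library, taken here as FPKM: they are not whole and their sums differ between libraries (424406 to 718138). Of these loci, 422 carry a symbol that another locus also has.

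Genes with at least 1 FPKM in at least 2 of the 12 course libraries were kept (13191), transformed as log2(FPKM + 1), which understates changes of low genes, and fitted with limma 3.58.1 (lmFit, eBayes with trend, R 4.3.3) in 6 groups of 2 that share 1 spread estimate. Contrasts were null minus present at cXENp3, and that difference minus the one at cXENp1 or in ESCs. Calls need a Benjamini-Hochberg adjusted p under 0.05 over all genes tested. Every adjusted p in the text comes from limma. The fits were tested on simulated data, in which 200 genes were given a log2 change of 2. The cXENp3 contrast called 72.5% of them, and the interactions with cXENp1 and ESCs called 46% and 42.5%. False calls numbered 10, 2 and 6. No interval is given, as the depth is unknown.

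The members and lists were chosen with earlier results of these data known. Named are Zfp281, Gata4, Sox17, Nanog, the 12 largest rises and falls, up to 4 genes per list and per interaction, all called, of 1 sign in 4 pairs and without a 0; genes outside this rule were chosen after their values were seen. Some genes that the rule names are not reported here. Alternatives covered the pseudocount (0.1), filters, scaling, moderation, line as a block, a minimum log2 difference of 1, genes listed at 0 and leaving out each library. Leaving out chromosomes 1, 6, 14 and Y was chosen after seeing the data. A fit with 1 library in a group assumes that it varies like the other groups. Promoters are from RefSeq (GRCm38.p6). Tables and plots were made with Python 3.11.15, pandas 2.3.3 and matplotlib 3.10.9.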

Additional observations from a re-analysis of the deposited data

Results flagged for a closer look

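The null-minus-present effect at cXENp3 differed from that at cXENp1 in 1510 genes and from that in ESCs in 2975 genes, by limma interaction terms adjusted over all genes tested. Among genes called there with 1 sign in all 4 pairs at cXENp3 and no value of 0, the largest increases against cXENp1 included those of Aqp8 (log2 6.86, adjusted p 0.00866), Fst (6.49, 0.00047) and Stra6 (5.90, 0.000245). The largest decreases there were those of Tdh (-6.42, 0.0404), Esrrb (-5.19, 0.0346), Gm7325 (-5.17, 0.0304) and Stra8 (-5.07, 0.00354).

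Under the same conditions, the effect rose most against ESCs for Hs3st1 (log2 6.93, adjusted p 0.00357), Clu (6.68, 0.00776), Aqp8 (6.52, 0.00667) and Pth1r (6.18, 0.00931). It fell most for Lefty2 (-6.42, 0.00196), Stra8 (-5.60, 0.00177), Ooep (-5.17, 0.00513) and Fam25c (-5.14, 0.00323). Clu, Tdh and Fam25c lie on chromosome 14, where both null lines stood above 3WT, and Lefty2 on chromosome 1, where 2.6Null stood under it. Stra8 lies on chromosome 6, outside the segment between 60 and 100 Mb.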

How the results depend on the processing

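The count of genes called at cXENp3 was 3101 in a fit of the 4 libraries alone, 763 with a minimum log2 difference of 1, and 2806 to 5221 on leaving out 1 library. Quantile normalization called 5688 genes, 45.5% of them higher, beside 54.6% of the 5528, and moved the median of all genes to -0.10. The interaction with cXENp1 gave 95 genes with a minimum log2 difference of 1 and 403 to 2539 on leaving out 1 library, and that with ESCs gave 158 and 1350 to 3545. With a smallest pair difference of 1, same-sign genes numbered 1483 and 779. Other alternatives kept each of these counts within 1.5 times. The line gives each library its pairing across stages, and with the line as a fixed replicate block the interactions called 1583 and 2999 genes. The cXENp3 contrast compares lines within a stage, so it has no paired fit. No called gene changed sign under any alternative. At cXENp3 most alternatives could not change the sign, because all 5528 called genes had 1 sign in all 4 pairs. Leaving out a library or changing the pseudocount keeps that sign, and several other fits use the same log2 differences. Of the named genes' values, 2896 kept their call, 350 lost it and 1 gained it. Of the list medians, 775 moved by less than the spread between replicates, 111 moved by more with the same sign and 12 by more with the other sign. The 775 include 60 from each alternative that leaves every list's log2 differences as they were. Those alternatives were the 4 libraries alone, no filter, no trend, lines as a random block, and a minimum log2 difference of 1. In all, 29 list medians had another sign than reported, 17 of them within the spread between replicates. The 12 sign changes past the spread were basement membrane 2.07 with genes listed at 0 left out, feeder markers -1.35 to 2.22, Hox genes -0.25 to 0.34 and neural markers -0.47 to 0.18 on leaving out 1 library, and semaphorins 0.54 with a pseudocount of 0.1. A mean of at least 5 gave forkhead factors -0.011, neural markers 0.18, trophoblast markers -0.12 and the WNT pathway -0.16. Without chromosomes 1, 6, 14 and Y, FGF ligands had 1.19, Hox genes 0.29 and nodal ligands 2.72, from fewer genes tested. The sign changes within the spread were Kruppel-like factors (0.0778 as reported) at -0.21 to -0.0884 under 2 alternatives, WNT pathway (0.101 as reported) at -0.14 to -0.0619 under 2 alternatives, basement membrane (-0.0619 as reported) at 0.0741 to 0.14 under 2 alternatives, collagens (0.55 as reported) at -0.71 without 3WT, plasma proteins and apolipoproteins (-0.00674 as reported) at 0.00731 to 0.35 under 5 alternatives, retinoic acid metabolism and targets (0.16 as reported) at -0.19 to -0.0135 under 3 alternatives and semaphorins (-0.0258 as reported) at 0.04495 to 0.25 under 2 alternatives. Apart from the smaller number of genes or samples in some fits, the cause was not tested.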
